A study of Mus musculus with 4 samples.

Results

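Inside gene bodies, 6216 regions of open chromatin were called in stem cells of the mouse large intestine and not in those of the small intestine, out of 119965 regions in the whole series. Open chromatin was mapped by ATAC-seq, in which Tn5 transposase cuts and tags the DNA it can reach. Peaks of the 4 deposited lists that overlapped by 1 bp or more were merged into regions. A region was taken when it held a peak of both large-intestinal (LISC) lists and of neither small-intestinal (SISC) list. Its midpoint had to lie inside a protein-coding gene (RefSeq, mm10), and the region over 1 kb from every protein-coding gene end, on chromosomes 1 to 19. These are called LISC-only gene-body regions below, and their counterparts with the tissues exchanged SISC-only gene-body regions. The peak calls of all 4 libraries chose them, so the regions were chosen by measured values, and their presence in LISC and absence in SISC are a description and carry no test. They made up 11.4% of the 54740 regions inside gene bodies. SISC-only regions numbered 4611 (8.42%) there, and regions called in all 4 libraries 23235 (42.4%). LISC-only regions outnumbered SISC-only regions inside gene bodies in all settings run for both except 2. Without SISC replicate 1 there were 6897 LISC-only and 10148 SISC-only regions. In the replicate 2 libraries alone, a setting chosen after seeing the data, there were 10548 and 12528, while the replicate 1 libraries alone gave 12782 and 8161. Without LISC replicate 1 or LISC replicate 2 there were 9652 and 9664 LISC-only gene-body regions.

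Both groups of 2 libraries came from untreated mice of 6 to 12 weeks with the genotype Lgr5-EGFP-IRES-creERT2. LISC were EGFP-positive cells from crypts of the large intestine, taken over its length from cecum to rectum. SISC were EGFP-positive, CD24-negative cells from crypts of the small intestine, taken near the pylorus and near the cecum. A CD24 gate is named for SISC alone, and each library was made from 50000 cells with 10 PCR cycles. Reporter and Cre are driven by the Lgr5 locus, and this allele is known to be silent in some crypts. The labels do not say that replicates were separate animals, so differences between them may be technical.

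Lgr5 is a Wnt-responsive receptor whose gene marks the cycling stem cells at the crypt base, which renew the epithelium in both parts of the gut. The small-intestinal lineages absorb nutrients and the large-intestinal ones mainly water and salt. Open chromatin within introns often marks enhancers, DNA that binds transcription factors and acts on a promoter of the same or another gene. Some of it marks promoters of shorter transcripts that start inside a longer gene.

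Few LISC-only gene-body regions lay on such an internal promoter. Of 3708 RefSeq starts of protein-coding genes that lay inside a gene and over 1 kb from gene ends, 30 (0.809%, 0.547 to 1.15%) fell in a LISC-only region, 46 (1.24%, 0.910 to 1.65%) in a SISC-only region and 1369 (36.9%, 35.4 to 38.5%) in a region called in all 4 libraries. Brackets here and below give exact (Clopper-Pearson) 95% intervals, which cover counting error only, since regions of the same libraries are not replicates. The 30 starts belonged to 28 genes. The bases before 7 of these starts are printed below, those of the 4 genes with the strongest LISC peaks and of the 3 that stand in a gene list used further on. They are the DNA before starts that fell in a region called in both LISC libraries and in no SISC library.

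Each line holds the 250 bases before an annotated start, 5′ to 3′ on the strand of the gene, from RefSeq (GRCm38.p6, the coordinates of mm10). Capitals mark matches, on either strand, to short words known from 6 families of transcription factors. For the caudal factors of the gut (CDX) the word was TTTATNG. For the nuclear receptor HNF4 it was CAAAGTCC, and for the zinc-finger family of GATA factors AGATAA. For the forkhead family it was TGTTTAC, and for the leucine zipper factors of the AP-1 complex TGANTCA. For the TCF/LEF factors, which act in the Wnt pathway, it was ATCAAAG.
Pde1c: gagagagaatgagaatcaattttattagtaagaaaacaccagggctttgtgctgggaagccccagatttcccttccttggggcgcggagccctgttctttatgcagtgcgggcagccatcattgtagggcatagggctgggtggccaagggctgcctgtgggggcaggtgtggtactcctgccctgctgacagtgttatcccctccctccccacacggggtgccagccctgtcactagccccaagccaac
Btbd8: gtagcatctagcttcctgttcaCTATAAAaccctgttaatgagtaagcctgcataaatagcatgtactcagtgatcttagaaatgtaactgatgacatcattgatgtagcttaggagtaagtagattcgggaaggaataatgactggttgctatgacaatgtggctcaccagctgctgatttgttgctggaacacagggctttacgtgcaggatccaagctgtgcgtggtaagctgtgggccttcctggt
Aim2: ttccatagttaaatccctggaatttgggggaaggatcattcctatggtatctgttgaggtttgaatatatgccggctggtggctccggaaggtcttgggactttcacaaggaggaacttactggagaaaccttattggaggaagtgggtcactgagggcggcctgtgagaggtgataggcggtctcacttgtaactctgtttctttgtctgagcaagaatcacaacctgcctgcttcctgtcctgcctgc
Rab15: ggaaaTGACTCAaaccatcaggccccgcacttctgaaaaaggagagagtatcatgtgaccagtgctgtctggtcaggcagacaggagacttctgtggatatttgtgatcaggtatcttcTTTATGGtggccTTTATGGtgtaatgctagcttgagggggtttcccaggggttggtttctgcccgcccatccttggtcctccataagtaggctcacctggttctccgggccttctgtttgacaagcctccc
Il1r1: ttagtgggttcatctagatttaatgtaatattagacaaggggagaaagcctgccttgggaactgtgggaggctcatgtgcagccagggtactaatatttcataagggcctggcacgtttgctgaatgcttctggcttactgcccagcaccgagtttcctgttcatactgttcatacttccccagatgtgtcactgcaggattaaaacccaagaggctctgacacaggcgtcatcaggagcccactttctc
Hoxa10: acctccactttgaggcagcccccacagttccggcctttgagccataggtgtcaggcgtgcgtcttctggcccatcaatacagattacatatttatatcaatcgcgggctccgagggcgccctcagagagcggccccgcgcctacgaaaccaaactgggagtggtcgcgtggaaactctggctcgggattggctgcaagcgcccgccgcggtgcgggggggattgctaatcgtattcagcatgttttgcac
Spdef: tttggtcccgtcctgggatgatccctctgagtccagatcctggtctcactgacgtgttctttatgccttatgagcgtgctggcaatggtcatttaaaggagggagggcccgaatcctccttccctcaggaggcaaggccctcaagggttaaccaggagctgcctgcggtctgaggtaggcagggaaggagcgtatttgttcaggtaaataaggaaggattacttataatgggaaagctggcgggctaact

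The stretches lie at chr6:56362393-56362642 (Pde1c, minus strand), chr5:107497524-107497773 (Btbd8, plus strand), chr1:173420354-173420603 (Aim2, plus strand), chr12:76818375-76818624 (Rab15, minus strand), chr1:40224830-40225079 (Il1r1, plus strand), chr6:52234940-52235189 (Hoxa10, minus strand) and chr17:27728952-27729201 (Spdef, minus strand). All 250 bases lay inside the LISC-only region except at Spdef, where 201 did. The Rab15 stretch holds 2 CDX words, at bases 120 and 132, and an AP-1 word at base 6. The Btbd8 stretch holds 1 CDX word at base 23, and the other 5 hold none of the 6 kinds. CpG dinucleotides ranged from 3 at Btbd8, Rab15 and Il1r1 to 20 at Hoxa10.

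Over the 300-base windows (250 before to 50 after the start) of 1 start for each of the 28 genes, the CDX word stood in 3 (10.7%), against 10.9% of 31396 RefSeq start windows on chromosomes 1 to 19. The AP-1 word stood in 4 (14.3%, 4.03 to 32.7%), against 7.84% of all start windows. GATA and forkhead words stood in 1 window each (3.57%), against 11.2% and 3.71%. HNF4 and TCF/LEF words stood in 0 of 28, which allows up to 12.3% by the exact interval, against 1.43% and 3.76%. The search covered 22 words, the 6 above among them. Of the others, the Sox word ACAATGG stood in 3 windows (10.7%), against 3.61% of all start windows. The E-box word CAGCTG stood in 7 (25.0%), against 16.3%, and its variant CAGATGG in 1 (3.57%), against 5.32%. The TEAD word GGAATG stood in 6 (21.4%), against 14.6%, and the word of the nuclear receptors, AGGTCA, also in 6 (21.4%), against 16.3%. The word of the Ikaros family, TTGGGAA, stood in 2 (7.14%), against 5.63%. In 1 window each stood the KLF word GGGTGTGG, found in 3.57% of all start windows, the Ets word CCGGAAG, found in 9.004%, and the Runx word TGTGGTT, found in 5.32%. In 0 of 28 stood the Grainyhead word AACCGGTT, found in 0.150% of all start windows, the STAT word TTCCNGGAA, found in 1.18%, and the word of the posterior Hox factors, TTTACGA, found in 0.612%. The words for HNF1, CTCF, IRF and NFI, which have 10 or more letters, also stood in 0 of 28, against 0.00956, 0.376, 3.46 and 0.0382% of all start windows. For all 22 words the share of all start windows lay inside the exact interval of the 28. The 31396 windows are those of all annotated starts, also at gene ends and where no region was called. They are thus not starts of the same kind as the 28. A match is not a binding site, and a word missing from these windows says nothing of its factor. The median GC content was 52.5% in the 28 windows and 53% in all, and the median number of CpG dinucleotides 4.5 and 7.

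Pde1c, a calmodulin-regulated phosphodiesterase of cyclic nucleotides, had an internal start 290 kb from its annotated 5′ end, and the region there had a −log10 q of 126 in LISC replicate 1 and 81.4 in LISC replicate 2. The −log10 q is the authors' peak significance, which grows with the depth of a library, so values of the 2 lists are given side by side and ranked only within a list. Aim2, a cytosolic DNA sensor, had 125 and 58.9 in the same order, and Rab15, a small GTPase of endosomal recycling, 156 and 41.1. All 3 lay above the upper quartile of LISC-only gene-body regions in both LISC lists, 34.7 and 24.5. Il1r1, the interleukin 1 receptor, had 46.3 in LISC replicate 1 and 45.4 in LISC replicate 2 at a start 2.6 kb into the gene. Hoxa10, a posterior Hox gene, had 41.3 and 14.9, and Spdef, an Ets factor of secretory cells, 11.7 and 11.9, both in that order. The Hoxa10 region lay 0.2 kb from a SISC peak, the Pde1c region 118 kb from one. Sox6, Igf1, Ppargc1a and Zbtb20 also had an internal start in a LISC-only region, with −log10 q of 9.0 to 18 in LISC replicate 1 and 6.94 to 15.2 in LISC replicate 2. Starts of other genes than protein-coding ones fell in a LISC-only gene-body region 28 times of 2750 (1.02%) and in a SISC-only one 23 times (0.836%).

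Peak lists held 91313 and 88739 peaks for LISC and 83443 and 93220 for SISC (replicates 1 and 2), of which 42.2 to 43.6% lay in gene bodies. Read depth is unknown. Replicate 1 of each group held peaks on the Y chromosome (8 in LISC, 6 in SISC) and replicate 2 of each group held none. Gene ends were looked up for markers, taking the 5′ and 3′ end of a gene together. Throughout, ends count as called in all 4 libraries when each library had a peak in a region within 1 kb of either end. The libraries need not share the same end. Ends of Lgr5 were called in all 4 libraries, as were those of 19 of 20 general epithelial markers. So were those of 15 of 19 large-intestinal and 19 of 23 brush border markers. Ends called in all 4 libraries do not tell LISC from SISC, and 63.8% of all genes had them. Immune markers had no end called in any library for 12 of 18, among them Ptprc, Cd3e and Csf1r. For Cd4, Cd79a, Itgax and Cd14, however, ends were called in all 4. Of all genes 30.2% had no end called. Markers of brain neurons had ends called in all 4 libraries for 9 of 15 and in none for 1. Stromal, endothelial, muscle and glial markers had them in all 4 for 8 of 21 and in none for 7. Lgr5 itself held 0 LISC-only, 3 SISC-only and 5 regions called in all 4 libraries inside its body.

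LISC-only regions lay inside gene bodies more often than regions called in all 4 libraries, and about as often as regions called in other combinations of libraries. Of 11919 LISC-only regions on chromosomes 1 to 19, 52.2% (51.3 to 53.1%) were gene-body regions, 3.73% (3.4 to 4.09%) lay at gene ends and 44.1% (43.2 to 45.0%) between genes. The gene-body share was 49.4% (48.4 to 50.4%) for SISC-only regions and 41.0% (40.6 to 41.4%) for regions called in all 4 libraries, of which 24.3% lay at gene ends. Regions of all other combinations of libraries had 52.6% (52.1 to 53.1%). Inside a gene, LISC-only regions were spread from end to end. Over the 4883 whose gene has a known strand, the median position was 48.1% of the way from the 5′ end, and each of 10 equal stretches of the gene held 7.31 to 11.3% of them. They stood a median of 27.3 kb from a gene end, against 18.6 kb for SISC-only and 16.0 kb for regions called in all 4 libraries, and the largest was 984 kb. Their genes were also longer, with a median host length per region of 129 kb against 101.2 kb for SISC-only and 88.0 kb for regions called in all 4, so the distances are not those of genes of like length.

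Most LISC-only gene-body regions were weaker than the median peak of each LISC list. The −log10 q had a median of 18.2 (quartiles 10.3 and 34.7, range 2.64 to 324) in LISC replicate 1 and 14.1 (quartiles 8.86 and 24.5, range 2.46 to 195) in LISC replicate 2. The authors' fold enrichment had medians of 4.34 and 3.54. Ranked within its list, the median LISC-only gene-body region stood at the 32.0th percentile in LISC replicate 1 and the 31.8th in LISC replicate 2, and the median region called in all 4 libraries at the 60.4th and 59.7th. At or above the 50th percentile in both LISC lists stood 1016 LISC-only gene-body regions (16.3%, 15.4 to 17.3%). The 90th percentile was reached by 9 in each LISC list and by 3 in both. The lowest −log10 q was 2.64 and 2.46, against 2.42 and 2.35 over all peaks of the 2 LISC lists. The median width was 476.5 bp, against 454 bp for SISC-only and 790 bp for regions called in all 4 libraries.

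**Figure D1:**
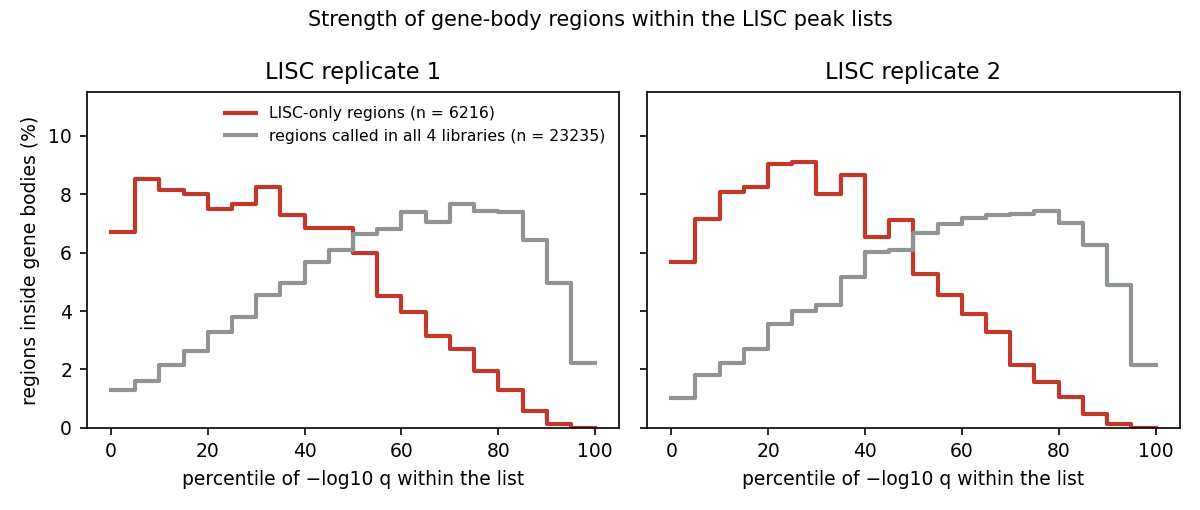
Share of gene-body regions (y axis, percent) in steps of 5 percentiles of −log10 q within the list (x axis), for LISC replicates 1 and 2; the red line is LISC-only regions (n = 6216), the grey line regions called in all 4 libraries (n = 23235). The red line lies highest below the 40th percentile and the grey line between the 50th and 90th.

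The choice of regions required overlapping peaks in both LISC libraries, which bounds the distance between their summits, so that distance is a description. The summits of the strongest peak in each LISC library lay a median of 32 bp apart (quartiles 7 and 76 bp), and within 50 bp in 62.7% (61.5 to 63.9%) of LISC-only gene-body regions. Regions called in all 4 libraries had a median of 17 bp and a share of 75.2% (74.6 to 75.7%) between the same LISC libraries. Within ranges of 25 percentiles the shares were close in the weakest range and lower for LISC-only regions in the others. Strength still differed inside a range, so these are not regions of equal strength. The 90th percentile of LISC replicate 1 was reached by 9 of 6216 LISC-only regions and by 1671 of 23235 called in all 4. From the 0th to the 25th percentile, averaged over both LISC lists, summits lay within 50 bp in 52.1% (50.1 to 54.2%) of LISC-only regions and in 52.4% (50.4 to 54.4%) of regions called in all 4. From the 25th to the 50th percentile the shares were 67.8% (65.9 to 69.6%) and 71.3% (70.1 to 72.4%). From the 50th to the 75th they were 72.2% (69.5 to 74.8%) and 78.3% (77.4 to 79.2%), and above the 75th 72.2% (65.3 to 78.3%) and 83.3% (82.4 to 84.2%). SISC-only gene-body regions had a median of 29 bp between the SISC libraries.

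The nearest SISC peak lay a median of 5.2 kb away, and 1021 LISC-only gene-body regions (16.4%, 15.5 to 17.4%) had one within 1 kb, 138 of them within 200 bp. SISC-only gene-body regions had a LISC peak within 1 kb in 17.5% (16.4 to 18.6%). Just inside the limit of 1 kb from a gene end stood 22 LISC-only regions, at 1011 to 1093 bp, and just outside it 23, at 902 to 998 bp. Just outside the rule on libraries stood gene-body regions with a peak in both LISC lists and 1 SISC list. Their median −log10 q was 8.87 in SISC replicate 1 (675 regions) and 9.56 in SISC replicate 2 (2041 regions). Others had a peak in 1 LISC list and no SISC list, with medians of 8.39 in LISC replicate 1 (3105 regions) and 6.67 in LISC replicate 2 (3286 regions).

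The 6216 regions lay in 3218 of 20665 protein-coding genes (15.6%), and SISC-only gene-body regions in 2896 (14.0%), with 1137 genes holding both. A single LISC-only region was held by 1915 genes. At the other end, 223 genes (1.08%) held 5 or more, 1599 regions together, against 95 genes (0.460%) with 5 or more SISC-only regions. Of the 223, 94 held no SISC-only region in the gene body. Without SISC replicate 2, LISC replicate 1 or LISC replicate 2 the number of such genes was 347, 439 and 425. A gene is counted here when a region's midpoint lies in its span, which does not show that the region acts on that gene.

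Mecom, which encodes a zinc-finger transcription factor, had the most LISC-only regions, 28, against 4 SISC-only regions and 30 called in all 4 libraries, among 88 in its body (chr3:29951296-30509759). The −log10 q of the 28 ranged from 5.25 over a median of 21.6 to 136 in LISC replicate 1, and from 6.63 over 19.2 to 79.1 in LISC replicate 2. They were interleaved with regions common to both tissues, at 5.88 to 529 kb from the annotated 5′ end. With the strongest 41721 peaks of each list alone, Mecom had 7 LISC-only regions and the forkhead factor gene Foxp1 13. The order of these genes thus depends on how many weak peaks are kept. This cut drops weak SISC peaks as well, so a region whose SISC peaks are all weak can become LISC-only. Counts at this cut, here and below, are therefore not counts of those of the 6216 regions that remain. Npas3, a transcription factor gene best known from brain, was laid out otherwise. Of its 29 gene-body regions 20 were LISC-only (69.0%), 0 SISC-only and 3 called in all 4 libraries (chr12:53248026-54072173). The SISC peaks of its gene-body regions lay at 4.73 to 5.51 kb and 818 to 820 kb from the annotated 5′ end of a gene of 824148 bp. Peaks at its gene ends are not counted here. The LISC-only regions from 130 to 624 kb had their nearest SISC peak 123 to 377 kb away.

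**Figure D2:**
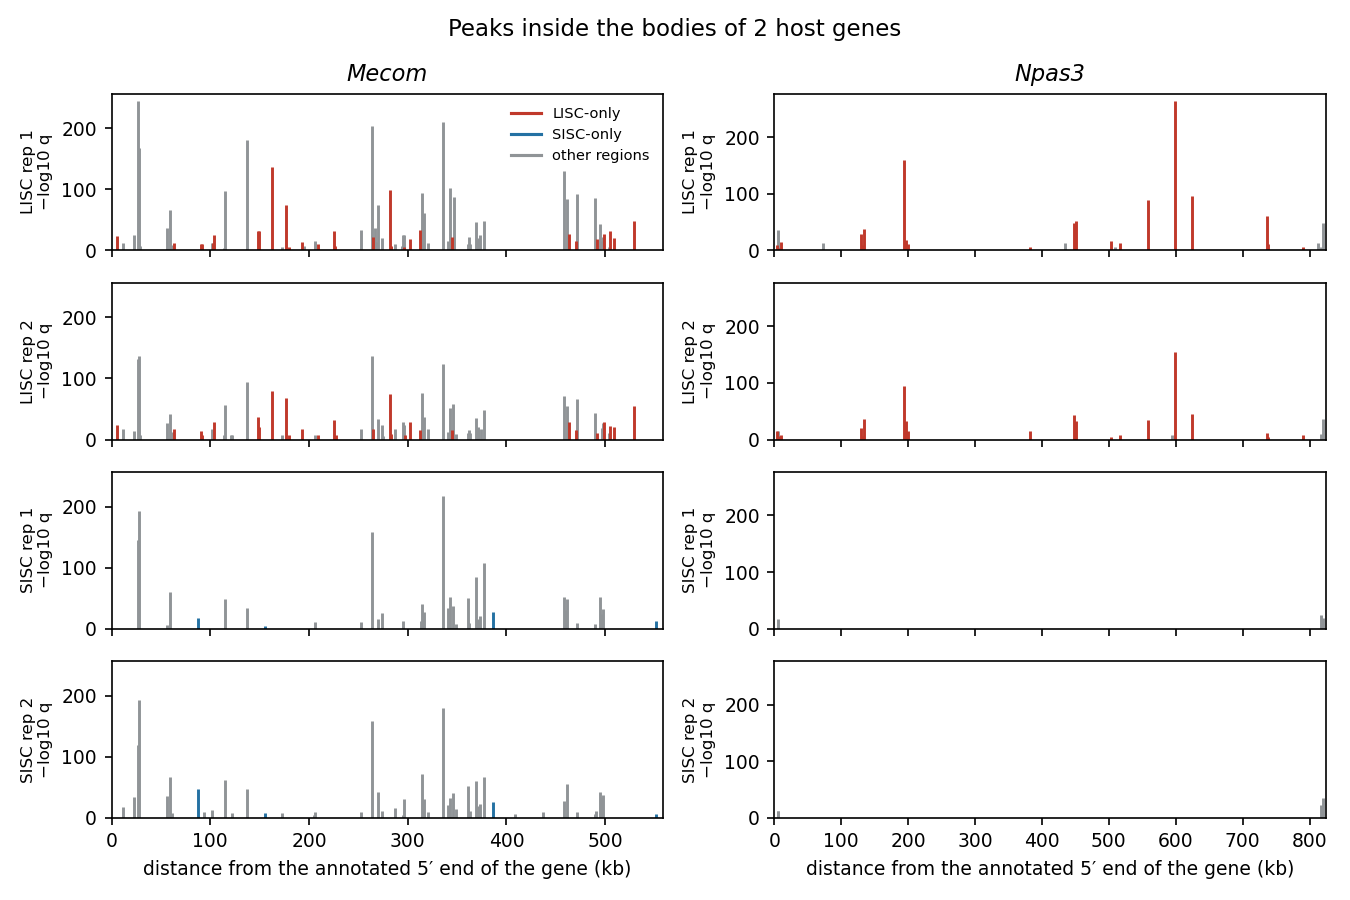
Peaks inside the bodies of Mecom (left) and Npas3 (right) by distance of the peak summit from the annotated 5′ end (x axis, kb) and the authors' −log10 q (y axis), for LISC replicates 1 and 2 above SISC replicates 1 and 2; red marks peaks in LISC-only regions, blue in SISC-only regions, grey in all others. Mecom has grey peaks in every library between the peaks of its 28 LISC-only regions, and Npas3 has 20 LISC-only regions and SISC peaks only near its ends.

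The other genes with the most LISC-only regions fell into the same kinds. Ctnna2, which encodes the neural form of alpha-catenin, had 17 of 25 gene-body regions LISC-only (68%), with 0 SISC-only and 1 called in all 4. Ror1, a Wnt receptor of the tyrosine kinase family, had 13 of 22, with 0 SISC-only and 3 called in all 4, but 0 LISC-only regions with the strongest 41721 peaks of each list. Dym (16), Rbms3 (14) and Pam (13) likewise held 0 SISC-only regions, but 8, 12 and 6 called in all 4. Pam encodes the enzyme that amidates peptide hormones. In Auts2, Foxp1 and Macrod2 regions called in all 4 libraries were the more numerous, at 38, 39 and 21, beside 17, 14 and 14 LISC-only and 11, 7 and 4 SISC-only regions. Cdkal1 had 18 LISC-only, 2 SISC-only and 12 regions called in all 4. Gene ends were called in all 4 libraries for Mecom, Npas3 and each of these genes except Rbms3, with no gene end called in any library.

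**Figure D3:**
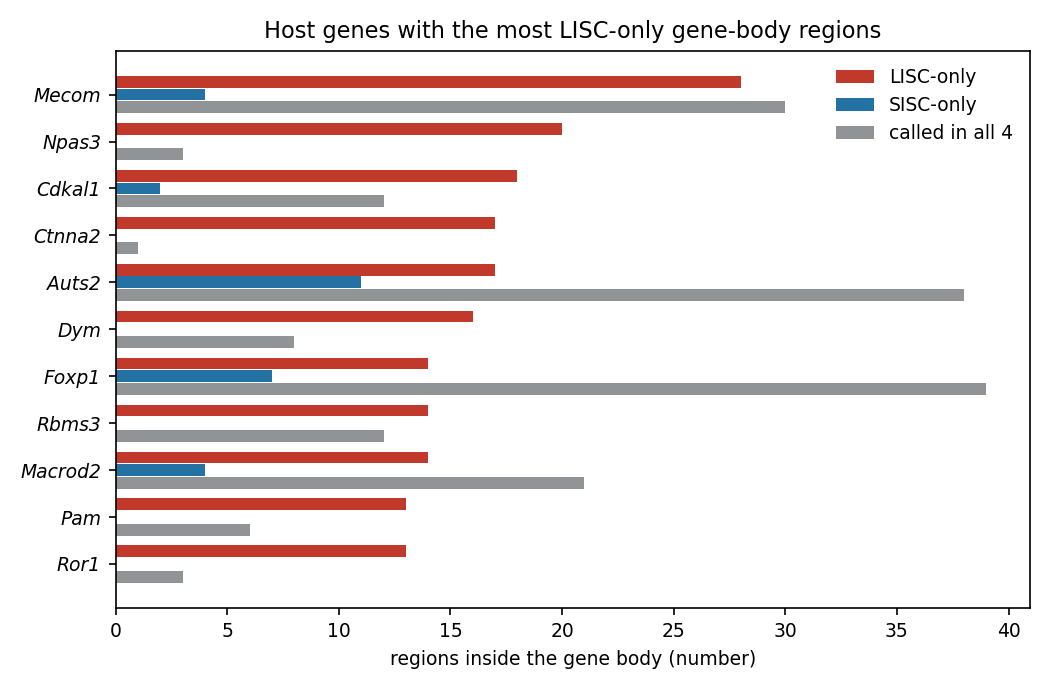
Number of gene-body regions (x axis) in 11 of the 12 genes with the most LISC-only ones; red bars are LISC-only, blue bars SISC-only and grey bars regions called in all 4 libraries. Npas3, Ctnna2, Dym, Rbms3, Pam and Ror1 have no blue bar, and Mecom, Auts2, Foxp1 and Macrod2 have grey bars longer than their red ones.

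Among genes with 4 or more LISC-only regions, the 8 densest in them held few other gene-body regions. Vcam1, a cell adhesion molecule, had 4 in its 19669 bp (226 per Mb of gene body) and no further region. Its 4 regions had a −log10 q of 9.19 to 60.1 in LISC replicate 1 and 10.2 to 41.1 in LISC replicate 2. Car1, a carbonic anhydrase of the colonic surface, had 6 (149 per Mb) and no further region in its body, and its gene end was called in LISC alone. The 6 stood in a row over 25328 bp with a −log10 q of 11 to 96.5 in LISC replicate 1 and 10.5 to 80.0 in LISC replicate 2, at 57.3 to 81.8 kb from the nearest SISC peak. Palmd (5 LISC-only), Slc6a2 (4), Acnat2 (4) and Trhr (4) held neither SISC-only regions nor any called in all 4 libraries. Slc6a2 encodes the noradrenaline transporter and Trhr the thyrotropin-releasing hormone receptor, whose strongest region had 198 in LISC replicate 1 and 137 in LISC replicate 2. Cpd and Atl1 held 6 each, with 2 called in all 4 at Cpd and 1 SISC-only at Atl1. These counts rested on weaker peaks in part. With the strongest 41721 peaks of each list, Cpd, Atl1, Slc6a2 and Acnat2 had 0 LISC-only regions, Vcam1, Car1 and Palmd 1 each and Trhr 2.

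Many LISC-only gene-body regions lay close to another. Another one stood within 10 kb in the same gene for 1990 (32.0%, 30.9 to 33.2%), against 23.6% (22.4 to 24.9%) of SISC-only gene-body regions, which are fewer, and 61.2% (60.6 to 61.8%) of those called in all 4 libraries, which are more. Rows of 4 or more, with no other gene-body region of the same gene between them, occurred in 75 genes. Regions at gene ends or placed in another gene were not looked at for these rows. The longest was 9 in Tenm4, a teneurin of cell adhesion, over 275603 bp. Rows of 8 stood in D7Ertd443e and in Dapk1, a death-associated protein kinase.

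Long genes hosted LISC-only regions more often than short ones. Genes were put in 10 classes of like number by length. In class 10, genes of 109104 bp or more, 58.1% held a LISC-only region, against 5.66% in class 5 and 0 in class 1, the shortest. Per Mb of gene body (the gene less 1 kb at each end) LISC-only regions were less uneven, from 1.77 in class 2 to 7.69 in class 9 and 6.17 in class 10. SISC-only regions ran between 5.25 and 6.65 per Mb in classes 2 to 9 and at 3.85 in class 10. Over all genes the densities were 6.45 LISC-only, 4.79 SISC-only and 24.1 regions per Mb called in all 4 libraries. The density of LISC-only regions by chromosome ran from 5.77 per Mb on chromosome 10 to 8.16 on chromosome 19.

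**Figure D4:**
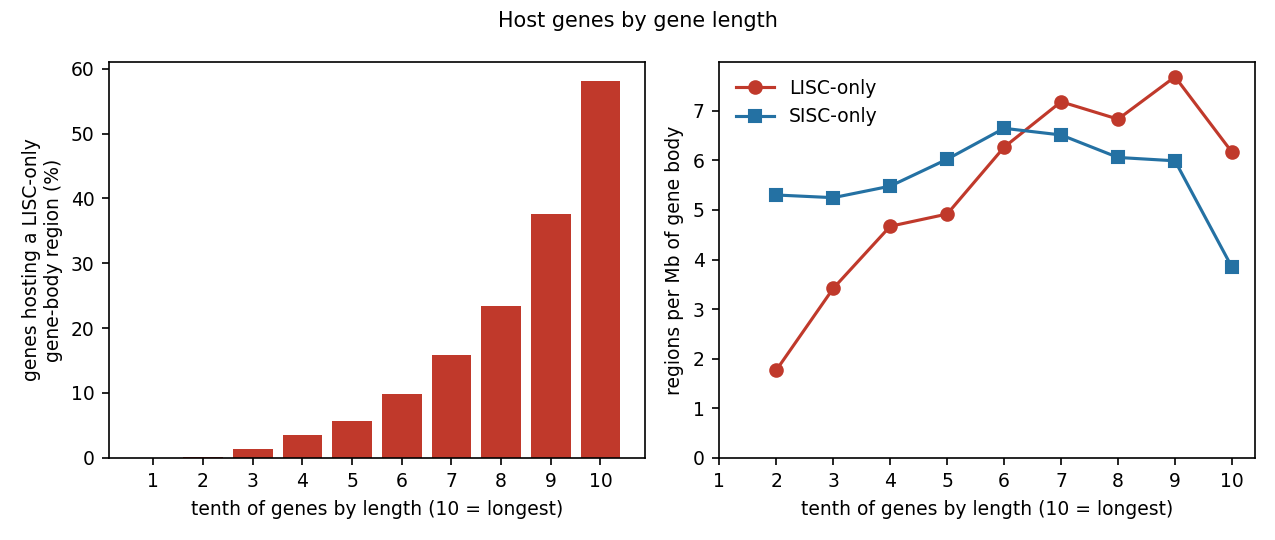
Left, share of protein-coding genes that host a LISC-only gene-body region (y axis, percent) by class of gene length (x axis, 10 the longest); right, regions per Mb of gene body by the same classes for LISC-only (red circles) and SISC-only (blue squares) regions, the shortest class having no body. The share climbs to 58.1% in class 10, where the density is 6.17 for LISC-only and 3.85 for SISC-only regions.

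Most host genes were open at an end in both tissues. At least 1 gene end was called in all 4 libraries for 81.1% (79.7 to 82.4%) of the 3218 hosts, against 63.8% of all genes. In the longest class of genes the shares were 76.1% (73.6 to 78.5%) of hosts and 52.1% (48.7 to 55.5%) of genes with no LISC-only gene-body region. Gene ends were called in LISC alone for 47 hosts (1.46%, 1.08 to 1.94%), against 0.656% (0.395 to 1.02%) of the hosts of SISC-only regions and 0.697% of all genes. No gene end was called in any library for 12.8% of hosts, against 13.5% of the hosts of SISC-only regions and 30.2% of all genes. Hosts named here with no gene end called included D7Ertd443e, Tenm4, Grin2b, Kcnmb3, Il1r1, Rbms3, Vcam1, Acnat2, Trhr and Cpd. Slc4a4, Nedd4l, Runx1, Ets1, Pecam1, Spdef, Aim2 and Igf1 were others.

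The strongest LISC-only gene-body regions, by mean percentile over both LISC lists, lay in Il1r1, Grin2b, D7Ertd443e, Npas3, Pias2, Rbms3, Kcnmb3 and Ank. The Il1r1 region (chr1:40278988-40280229) had a −log10 q of 316 in LISC replicate 1 and 149 in LISC replicate 2, with summits 2 bp apart and a fold enrichment of 12.8 and 9.54. It lay 57.1 kb into the gene and 12.0 kb from the nearest SISC peak. The region in Grin2b (chr6:135829031-135830399), a glutamate receptor subunit, had 305 in LISC replicate 1 and 153 in LISC replicate 2. The Npas3 region (chr12:53846093-53847120) had 264 and 154 in that order, with both summits at the same base, 218 kb from the nearest SISC peak. The Ank region (chr15:27529488-27530466), in the gene of a pyrophosphate transporter, had the highest value of any LISC-only gene-body region in the list of LISC replicate 1, 324, and 121 in LISC replicate 2.

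Gene lists that fit the tissue were chosen with earlier results of these data known and are described by counts, with no test. The number of genes in a list that hosted a LISC-only gene-body region stands against 15.6% of all genes, and a density against 6.45 LISC-only and 4.79 SISC-only regions per Mb over all genes. Hosting climbs with gene length (37.7% in class 9), and all genes have a median length of 17.5 kb, so for lists of longer genes the 15.6% is no measure, and the median length of each list is given. With the strongest 41721 peaks of each list, 19 of the 71 named genes that hosted a LISC-only region held 0. Markers of the large-intestinal epithelium hosted one in 5 of 19 genes, with 11 LISC-only and 3 SISC-only regions, or 30.9 and 8.42 per Mb (median gene length 21.6 kb). Car1 held 6 of the 11. Scnn1a and Scnn1b, subunits of the epithelial sodium channel, held 2 and 1. The first Scnn1a region had a −log10 q of 197 in LISC replicate 1 and 45.2 in LISC replicate 2 but lay 0.69 kb from a SISC peak. Car2 and Muc3 held 1 each, and the other 14 genes, Slc26a3 and Aqp8 among them, held none inside the body.

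Ion and water transport genes hosted LISC-only regions in 13 of 22 genes, with 30 LISC-only and 22 SISC-only regions (10.1 and 7.44 per Mb, median length 83.9 kb). Slc4a4, a sodium bicarbonate cotransporter, held 6 LISC-only and 5 SISC-only regions, Nedd4l, a ubiquitin ligase that acts on the sodium channel, 5 and 2, and the chloride channel gene Cftr 3 and 2. Of 325 regions in the bodies of these genes, 123 were called in all 4 libraries. Glycan-modifying enzymes hosted them in 15 of 31 genes, with 43 LISC-only and 17 SISC-only regions (13.8 and 5.46 per Mb, median length 64.5 kb). Cmah, which makes the sialic acid Neu5Gc, held 10 of its 20 regions as LISC-only and 0 as SISC-only. Its strongest (chr13:24436935-24437999) had a −log10 q of 145 in LISC replicate 1 and 88.1 in LISC replicate 2. St6galnac3, a sialyltransferase, held 5 and Fut9, a fucosyltransferase with a gene end called in LISC alone, 4, and neither a SISC-only region. With the strongest 41721 peaks alone Cmah had 5, St6galnac3 1 and Fut9 0. Antimicrobial and innate genes hosted them in 5 of 25 genes, with 13 LISC-only regions and 1 SISC-only (25.0 and 1.92 per Mb, median length 19.03 kb). All but 3 of the 13 lay in the neighbouring interleukin receptor genes Il1r1 (5), Il1rl2 (3) and Il1rl1 (2), and without them the list held 3. Tlr4, the receptor for bacterial lipopolysaccharide, held 1 and had a gene end called in LISC alone. Nod1, a sensor of bacterial cell wall fragments, held 2.

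Stem cell and Wnt target genes hosted LISC-only regions in 10 of 29 genes and SISC-only ones in 16, with 18 and 30 regions (8.23 and 13.7 per Mb, median length 72.5 kb). Znrf3, a ubiquitin ligase that removes Wnt receptors, held 3 LISC-only and 2 SISC-only regions beside 16 called in all 4. Lrig1, a feedback inhibitor of EGF receptors, held 3 and 0 beside 13, and Tnfrsf19 3 and 2 beside 3. Wnt pathway components hosted them in 13 of 30 genes, with 36 LISC-only and 21 SISC-only regions (16.5 and 9.60 per Mb, median length 55.4 kb). Ror1 held 13 of the 36. Tcf7l2, the main TCF factor of the gut, held 5 LISC-only and 2 SISC-only regions, with 25 of its 45 called in all 4 libraries. The receptor gene Fzd3 held 4 of 5 gene-body regions as LISC-only, 0 as SISC-only and 0 called in all 4. The strongest (chr14:65256008-65257056) had a −log10 q of 88.0 in LISC replicate 1 and 27.4 in LISC replicate 2. With the strongest 41721 peaks of each list, Ror1, Fzd3, Znrf3 and Lrig1 had 0 LISC-only regions and Tnfrsf19 1.

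Notch and BMP signalling genes hosted LISC-only regions in 17 of 30 genes, with 26 LISC-only and 20 SISC-only regions (10.9 and 8.41 per Mb, median length 46.0 kb), at most 3 LISC-only in a gene. These were the BMP receptor genes Bmpr1a (3 LISC-only, 3 SISC-only) and Bmpr1b (3 and 1), and the inhibitory Smad gene Smad7 held 2 and 0. TGF-beta and activin signalling genes held 21 LISC-only and 5 SISC-only regions in 9 and 5 of 18 genes (13.1 and 3.12 per Mb, median length 78.8 kb). Ltbp1, which holds latent TGF-beta in the matrix, had 7 of 14 as LISC-only and 0 as SISC-only. The activin receptor gene Acvr1b held 2 and 0, its LISC-only regions lying 0.963 and 0.434 kb from a SISC peak. In the EGF receptor, MAPK and PI3K list 10 of 30 genes hosted them, with 17 LISC-only and 7 SISC-only regions (4.53 and 1.87 per Mb, both below the density over all genes, median length 61.1 kb). The receptor gene Erbb4 held 5 of 6 as LISC-only and the ligand gene Tgfa 2 of 12, neither with a SISC-only region, and Egfr 2 and 1. Bmpr1a, Acvr1b and Egfr had 0 LISC-only regions with the strongest 41721 peaks of each list.

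Transcription factor lists went different ways. Intestinal identity factors held 12 LISC-only and 14 SISC-only regions in 6 and 9 of 20 genes (14.2 and 16.6 per Mb, median length 21.2 kb), with Elf1 at 4 and 1, Hnf4a at 2 and 3 and Grhl2 at 2 and 3. Proximal factors held 2 and 9 in 2 and 3 of 10 genes (6.42 and 28.9 per Mb, median length 18.5 kb). The Ikaros, Runx and Ets list held 17 and 7 in 7 and 5 of 19 genes (8.47 and 3.49 per Mb, median length 88.0 kb). Ikzf2, an Ikaros-family factor, had 5 of 7 gene-body regions LISC-only, with 0 SISC-only and 0 called in all 4. Of the 5, 3 had a −log10 q of 97.5 to 124 in LISC replicate 1 and 69.9 to 73.4 in LISC replicate 2, 28.6 to 93.6 kb from the nearest SISC peak. Runx1 held 5 and 0 beside 10 called in all 4, and Ets1 2 and 0 beside 5. Among Hox genes, 3 of 23 of paralogs 1 to 8 hosted one, with 5 LISC-only and 2 SISC-only regions (28.4 and 11.4 per Mb, median length 3.74 kb), and Hoxb3, with a gene end called in LISC alone, held 3 and 1. Of 15 Hox genes of paralogs 9 to 13, Hoxa10 alone hosted one (21.7 LISC-only and 0 SISC-only per Mb, median length 4.27 kb). Nuclear receptors held 43 and 28 in 12 and 10 of 26 genes (10.9 and 7.07 per Mb, median length 50.5 kb). Rora, an orphan receptor, held 11 and 0, the mineralocorticoid receptor gene Nr3c2 5 and 2, and Esrrg 6 and 9. With the strongest 41721 peaks of each list, Hoxb3, Nr3c2 and Hnf4a had 0 LISC-only regions.

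**Figure D5:**
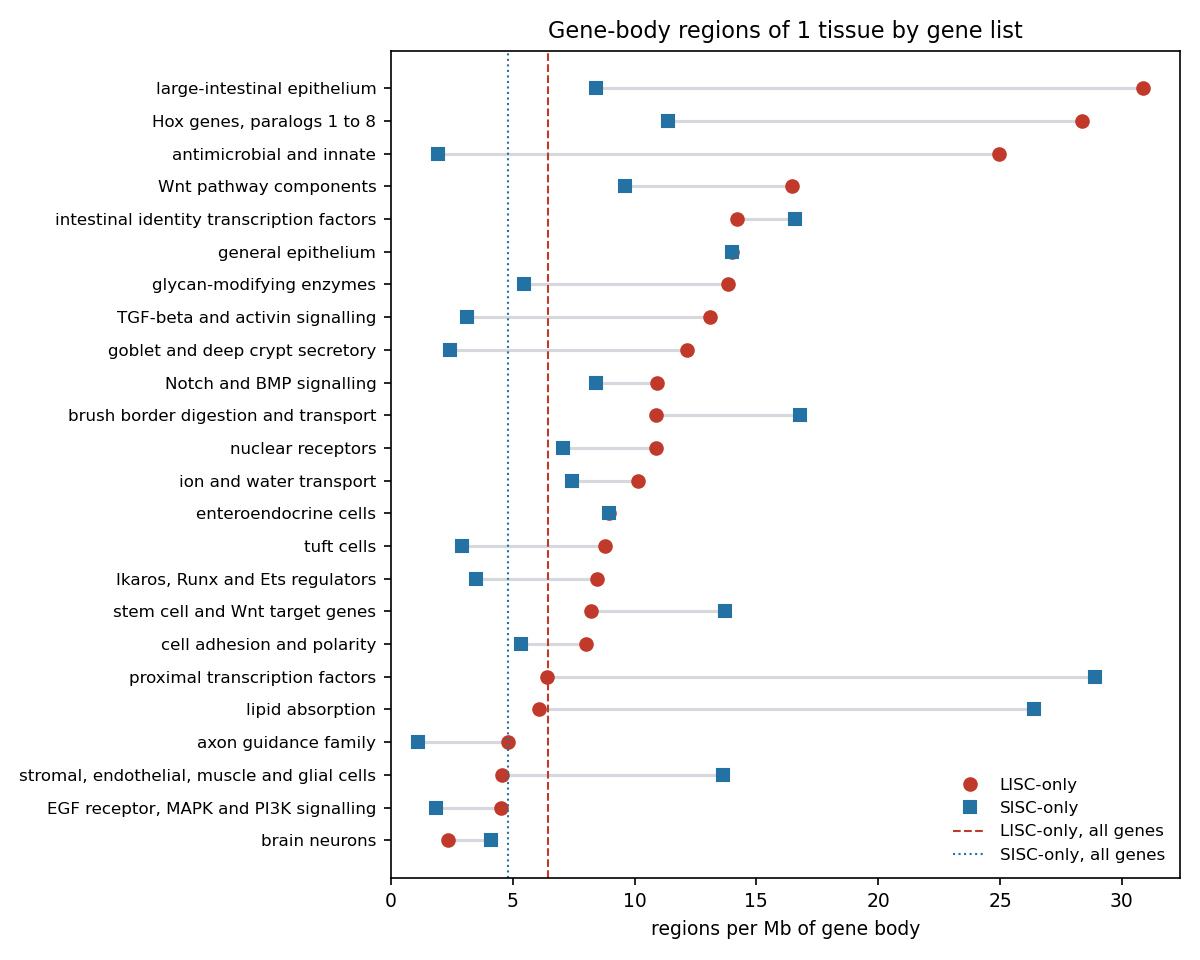
Density of gene-body regions (x axis, regions per Mb of gene body) over the genes of each list with 20 or more gene-body regions; red circles are LISC-only and blue squares SISC-only regions, and the dashed and dotted lines their densities over all genes (6.45 and 4.79). The large-intestinal epithelium list lies farthest right for LISC-only regions, and the proximal transcription factor and lipid absorption lists for SISC-only regions.

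Genes for guidance and cell contact were long. The axon guidance family had 43 LISC-only and 10 SISC-only regions in 15 and 8 of 30 genes. Its density was 4.83 and 1.12 per Mb, both below that over all genes, in genes with a median length of 155 kb. Srgap1 held 7 and 0, the netrin receptor gene Unc5b 5 and 1 and the semaphorin gene Sema6a 5 and 0. Cell adhesion and polarity genes had 45 and 30 in 16 and 10 of 30 genes (8.02 and 5.35 per Mb, median length 63.3 kb), with the polarity genes Pard3 at 8 and 6 and Pard3b at 6 and 5, and Magi1 at 7 and 4.

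The lipid absorption and brush border lists held fewer LISC-only than SISC-only regions. Of these, only the lipid list was below the density of LISC-only regions over all genes, as was the list of proximal transcription factors (6.42 per Mb). Lipid absorption genes held 3 and 13 in 3 and 5 of 20 genes (6.10 and 26.4 per Mb, median length 19.4 kb). Brush border digestion and transport genes held 13 and 20 in 9 and 12 of 23 genes (10.9 and 16.8 per Mb, both above those over all genes, median length 32.1 kb). Slc3a1, a subunit of an amino acid transporter, held 3 and 0, the glucosidase gene Mgam 2 and 3 and the vitamin B12 receptor gene Cubn 2 and 0. Mgam had 0 LISC-only regions with the strongest 41721 peaks of each list. Proliferation genes and general epithelial markers held equal numbers, 2 and 2 and 4 and 4, in 2 and 4 of 20 genes each. Their densities were 6.75 for both kinds in proliferation genes (median length 15.0 kb) and 14.0 for both in general epithelial markers (median length 7.25 kb).

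Markers of other cell types held small numbers of LISC-only regions, at densities above and below that over all genes. Secretory markers, of goblet and deep crypt cells, held 5 LISC-only regions and 1 SISC-only in 4 and 1 of 20 genes (12.2 and 2.43 per Mb), namely Kit with 2 and Clca1, Spdef and Bcas1 with 1 each. Tuft cell markers held 6 and 2 in 3 and 2 of 14 genes (8.81 and 2.94 per Mb), 4 of the 6 in Dclk1 (−log10 q of 5.54 to 35.0 in LISC replicate 1 and 4.89 to 12.6 in LISC replicate 2). Both densities of LISC-only regions were above the 6.45 over all genes. Kit and Dclk1, and Pecam1 of the markers below, had 0 LISC-only regions with the strongest 41721 peaks of each list. Gene ends were called in all 4 libraries for 15 of the 20 secretory and 8 of the 14 tuft markers. A CD24 gate is named for SISC alone, and in these counts tissue and gate cannot be told apart. The part of other cell types in the results was not tested. Enteroendocrine markers held 2 and 2 in 2 and 2 of 20 genes (8.96 per Mb for both kinds), and Paneth markers 0 and 0 in 9 genes. Immune markers held 1 and 2 in 1 and 2 of 18 genes (2.48 and 4.96 per Mb), the 1 being in Itgam. Stromal, endothelial, muscle and glial markers held 3 and 9 in 2 and 6 of 21 genes (4.54 and 13.6 per Mb), 2 of the 3 in Pecam1, and brain neuron markers 4 and 7 in 3 and 4 of 15, 2 of the 4 in Syt1. The density of the neuron list was 2.36 LISC-only and 4.12 SISC-only regions per Mb. Median gene lengths were 11.2 kb for the secretory, 23.4 kb for the tuft, 8.89 kb for the enteroendocrine and 4.73 kb for the Paneth markers. Immune markers had a median of 9.01 kb, the stromal, endothelial, muscle and glial ones 17.3 kb and the neuron ones 52.1 kb.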

How the data were processed

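ATAC-seq was measured in 2 LISC and 2 SISC libraries. The authors deposited 1 peak list per library on mm10. The submitters' processing notes name MACS2 2.2.7.1, Bowtie2 2.3.4.1 and cutadapt 3.4, and without a version bedtools and Picard. Read depth is unknown. The calling threshold, the step order and any Tn5 shift were not given in the sources used here. For each peak the deposited lists give the authors' fold enrichment at the summit, a ratio. They also give its significance as −log10 p and −log10 q, as deposited by the authors. An integer score per peak, as deposited by the authors, was not used.

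Peaks were merged in Python 3.11.15 with pandas 2.3.3 and numpy 2.4.6 (intervals with scipy 1.17.1, figures with matplotlib 3.10.9), and the merge was the same with bedtools 2.31.1. On simulated data 1000 of 1000 planted regions were recovered with their class and position. Genes were the RefSeq protein-coding genes of GRCm38.p6, with strand from the promoter table for 16457 of them. A region was placed in the shortest gene over its midpoint.

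With 2 libraries a group the smallest two-sided exact p is 33.3%, so no p is given. Shares carry exact 95% intervals for counting error only. Members and gene lists were chosen with earlier results of these data known. The 28 lists named 605 different genes, and the RefSeq table held 597 of these. Some items are not reported here. Named were 11 of the 12 genes with the most LISC-only regions, the 8 densest among genes with 4 or more, up to 3 genes of each list with 2 or more, Lgr5 and Cd24a (0 LISC-only and 0 SISC-only regions), and the 8 strongest regions. Genes with internal starts or rows of regions, and other list genes, were named after their values were seen. A search for words around summits was planned and not run, since no mm10 genome was used here. Its 22 words were searched at starts instead, and the 6 marked in the printed stretches were chosen after that search. Alternatives left out each library, cut the lists to equal length or to their strongest peaks, and changed the overlap and the distance to gene ends.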

Additional observations from a re-analysis of the deposited data

Results flagged for a closer look

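Outside the comparisons, the peak list of LISC replicate 1 held 8 peaks on the Y chromosome and that of SISC replicate 1 held 6, while both replicate 2 lists held 0. These peaks drew attention because the gene-body regions were taken from chromosomes 1 to 19 and use none of them. The difference between replicates was not tested.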

How the results depend on the processing

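Leaving out 1 library at a time gave 6897 to 9664 LISC-only gene-body regions, 5868 to 10148 SISC-only ones, 248 to 439 genes with 5 or more LISC-only regions and a gene-body share of 51.9 to 53.2%. Fewer libraries must then agree or be empty, and each of these counts was above that with all 4 libraries. The strongest 41721 peaks of each list gave 2678 LISC-only and 2193 SISC-only gene-body regions, 1801 host genes and 42 genes with 5 or more. The share was then 50.4% and the median summit distance 14 bp. Weak SISC peaks were dropped as well, so a region with only weak SISC peaks can count as LISC-only here. Of the 6216 regions, 1016 stood at or above the 50th percentile in both LISC lists. The summit distance was 27 bp with lists of equal length, 29 bp with 50% of a region covered and 27 bp with windows of 200 bp on the summits. Taking regions over 2500 bp from gene ends gave a share of 49.6%. A −log10 q of 10 or more in both LISC lists, a setting chosen after seeing the data, left 3726 regions and 89 genes with 5 or more. The libraries of 1 replicate number alone, also chosen after seeing the data, gave 12782 LISC-only and 8161 SISC-only regions for replicate 1, and 10548 and 12528 for replicate 2. The cause of these shifts was not tested beyond the fewer peaks and libraries in each. Of 73 named genes, 58 had a count that moved with the strongest peaks alone, 33 with the −log10 q of 10, and 0 to 13 in each of the other settings. A count was taken to move only beyond a set ratio to that with all peaks and libraries, or to or from 0. Smaller changes were left out, so a setting in which 0 genes moved does not mean unchanged counts. No summit distance exists without a LISC library. No paired analysis was possible because the results come from no test, and the labels do not say that equal replicate numbers pair libraries. The unknown read depth limits every absence, since a missing SISC peak does not show closed chromatin.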
